A study of Mus musculus with 8 samples.

Results

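The expression of 10 genes of the intermediate filament cytoskeleton was followed in NMuMG, an epithelial cell line from normal mouse mammary gland. The line is widely used to study the epithelial-mesenchymal transition (EMT) that TGFbeta sets off. The 10 genes were the type II keratins Krt5, Krt7, Krt8 and Krt80, the type I keratins Krt14, Krt15, Krt17, Krt18 and Krt19, and the type III filament gene Vim, which encodes vimentin. The members were the probesets whose single gene symbol was 1 of these names, and each of the 10 genes had 1 such probeset, among 19937 genes measured. Total RNA was hybridised to 8 Affymetrix arrays, 2 for each of 4 groups. The groups were cells with a vector that carries major satellite, the repeat of mouse pericentromeric heterochromatin, after 8 h of TGFbeta, the same cells untreated, cells with a control vector after 8 h of TGFbeta, and control vector cells untreated. All 4 groups were stably transfected. The untreated arrays were labelled 0 h, and no untreated cells were measured at 8 h. The effect of TGFbeta and that of the 8 h themselves therefore cannot be told apart. The sources used here do not say whether a transfected line was 1 clone or a pool, nor at what dose TGFbeta was given.

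Keratin filaments are built from pairs of 1 type I and 1 type II chain. Krt8 with Krt18, joined by Krt7 and Krt19, is the usual set of simple and luminal epithelia, whereas Krt5 with Krt14, and Krt15 and Krt17, mark basal cells of layered epithelia and of the mammary gland. Vimentin forms filaments of its own in mesenchymal cells and in many cultured lines, and a shift from keratins to vimentin is a textbook sign of EMT.

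The values were deposited log2 expression values, so a difference of 1 is a 2-fold change. Each title held a code that occurred once in every group, and the 2 codes were taken as replicate numbers 1 and 2. Array medians were 7.72 to 7.76 for number 1 and 7.88 to 7.92 for number 2. Differences were fitted over all 8 arrays with limma and the replicate number as a term, and are given ± standard error (SE), with p adjusted over all 19937 genes. A gene was called to rise or fall at an adjusted p under 0.05. Separate cultures are not stated for the replicates, and the p-values rest on the spread among these arrays, which may be technical. As a check of the cell type, Cdh1, which encodes E-cadherin, averaged 12.91 over the 8 arrays, above 98.5% of genes. Of 12 epithelial identity markers, 6 averaged above the median gene at 8.19 and 6 under it, with Epcam (6.84) the lowest. Cldn4 averaged 10.04 and 7.79 in major satellite cells with and without TGFbeta, and 10.18 and 7.93 in control vector cells, so that it was above the median gene with TGFbeta alone. Of 10 fibroblast markers, 4 averaged above the median gene, and they ranged from 4.73 (Lum) to 8.68 (Col1a1).

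Krt19 fell and Krt7 rose after 8 h of TGFbeta in both lines, Krt14 rose in major satellite cells, and the other members did not pass in either line. In major satellite cells 2 of the 10 members rose and 1 fell, beside 15.3% of all genes called (6.89% higher and 8.38% lower). In control vector cells 1 rose and 1 fell, beside 14.6% of all genes (6.92% higher and 7.63% lower). In the average response of both lines 2 rose (Krt7, Krt14) and 1 fell (Krt19), beside 24.3% of all genes called in that comparison, 11.2% higher and 13.1% lower. With 10 members these counts are small, and their distance from the background shares was not tested. The median difference over the members was 0.16 in major satellite cells and 0.09 in control vector cells, where the medians over all genes were 0.03 and 0.01. Without the replicate number in the model, 0 of the 10 members passed in major satellite cells (2 at an unadjusted p under 0.05, 1.09% of all genes called) and 0 in control vector cells (1 at an unadjusted p under 0.05, 1.07% of all genes called). Krt19 was the 1 member that passed in the average response of that fit, beside 4.83% of all genes.

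**Figure D1:**
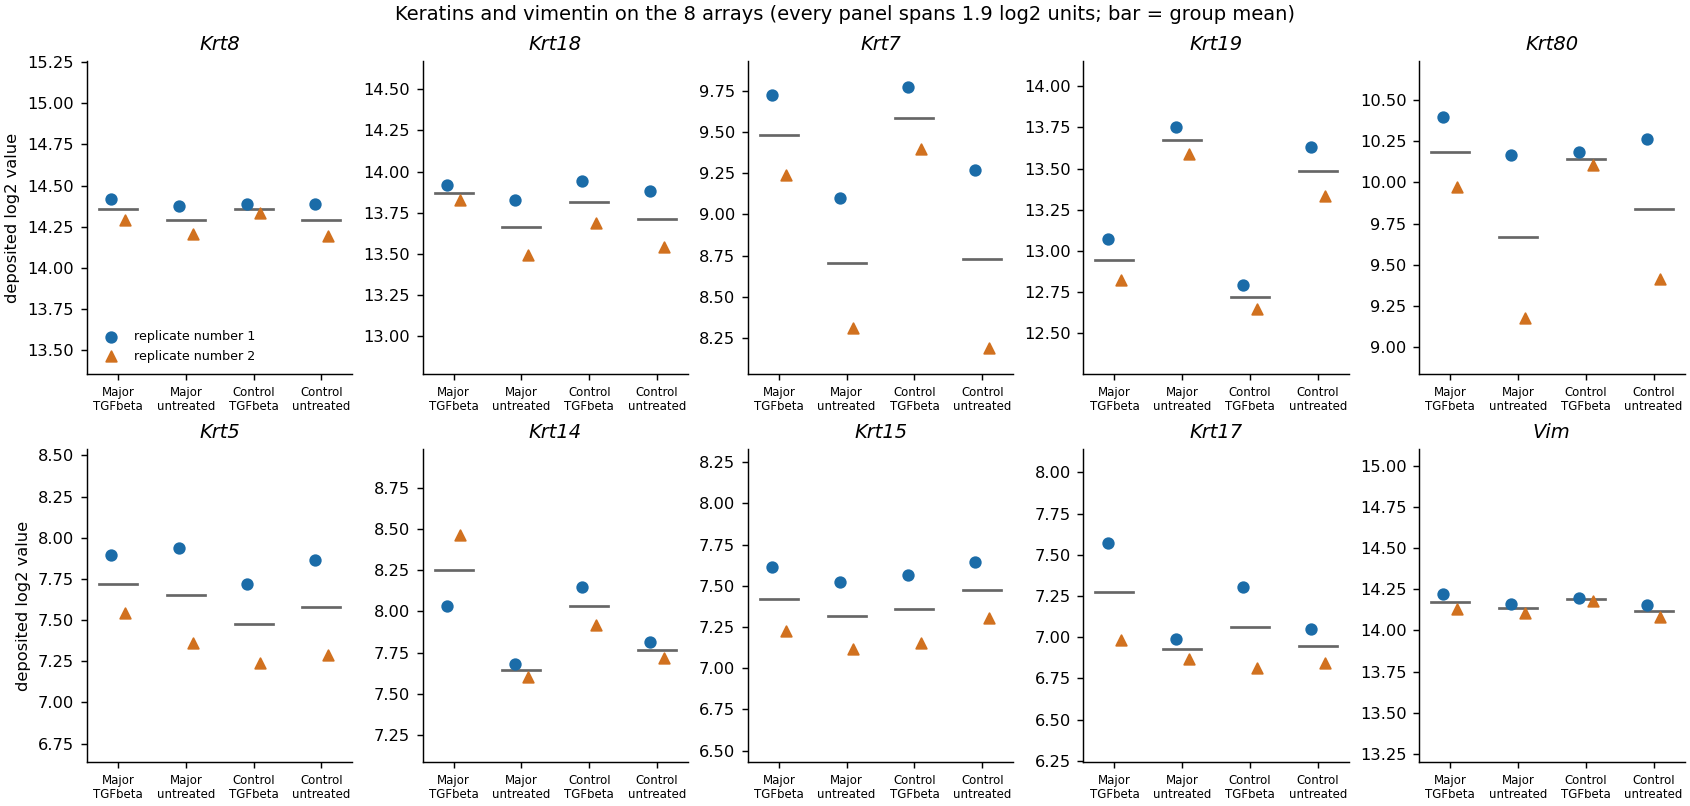
Deposited log2 value (vertical axis) of each member on the 8 arrays, by group (horizontal axis), with circles for replicate number 1, triangles for number 2 and a bar for the group mean. Every panel spans the same number of log2 units. All 4 TGFbeta arrays of Krt19 (12.65 to 13.07) lie below its untreated arrays (13.33 to 13.76), while Krt8 and Vim hardly leave their level.

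Krt19 encodes a short type I keratin of simple epithelia. It had values of 13.07 and 12.82 in TGFbeta-treated major satellite cells, against 13.76 and 13.59 in untreated ones. In control vector cells it had 12.80 and 12.65 with TGFbeta, against 13.63 and 13.33 untreated. The 4 TGFbeta arrays were all lower than the 4 untreated arrays, with no overlap. The share of all genes whose arrays separate in this way was not counted. The fitted difference was -0.72 ± 0.09 in major satellite cells (adjusted p = 0.00062) and -0.76 ± 0.09 in control vector cells (adjusted p = 0.000469), a level 0.605 and 0.591 times that of untreated cells. Within replicate numbers 1 and 2 it was -0.68 and -0.76 in major satellite cells, and -0.84 and -0.68 in control vector cells. Averaged over both lines, Krt19 fell by 0.74 ± 0.06 (95% interval -0.88 to -0.61, adjusted p = 3.09e-05). That call also held without the replicate number (adjusted p = 0.0178), whereas the calls within each line did not (adjusted p = 0.1225 in major satellite cells and 0.107 in control vector cells). In these bulk samples, fewer cells that express a gene and less RNA per cell cannot be told apart.

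Krt7, the type II keratin of simple and glandular epithelia, moved the other way. Its values were 9.72 and 9.24 in major satellite cells with TGFbeta, against 9.10 and 8.31 untreated. Control vector cells had 9.77 and 9.40 with TGFbeta, against 9.27 and 8.19 untreated. Within each line the treated arrays were above the untreated ones, but across lines they overlapped, since treated major satellite replicate 2 (9.24) was below untreated control vector replicate 1 (9.27). Krt7 rose by 0.77 ± 0.15 in major satellite cells (adjusted p = 0.00863), 1.71-fold, and by 0.86 ± 0.15 in control vector cells (adjusted p = 0.00524), 1.81-fold. Averaged over both lines it rose by 0.82 ± 0.11 (95% interval 0.57 to 1.06, adjusted p = 0.000522). Without the replicate number the adjusted p was 0.718 in major satellite cells, 0.681 in control vector cells and 0.247 in the average. The calls within the lines also rested on replicate number 2. Without its untreated or its TGFbeta array, adjusted p was 0.0869 or 0.102 in major satellite cells and 0.0557 or 0.0744 in control vector cells. With every probeset of the table tested, it was 0.0689 in major satellite and 0.056 in control vector cells.

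Krt8 and Krt18 are the obligate pair of simple epithelia and are the first keratins of the embryo. The Krt8 probeset read 14.42 and 14.29 in major satellite cells with TGFbeta, against 14.37 and 14.20 untreated. Control vector cells had 14.38 and 14.33 with TGFbeta, against 14.39 and 14.19 untreated. Treated and untreated arrays of Krt8 overlapped in both lines. Its difference was 0.07 ± 0.08 in each line (adjusted p = 0.655 in major satellite and 0.704 in control vector cells), and the average of 0.07 had a 95% interval of -0.07 to 0.20. Krt18 had 13.92 and 13.83 with TGFbeta against 13.83 and 13.50 untreated in major satellite cells. In control vector cells it had 13.95 and 13.69 with TGFbeta against 13.88 and 13.54 untreated. Krt18 was higher with TGFbeta in 4 of 4 pairs of the same line and replicate number, by 0.06 to 0.33. The share of all genes higher in all 4 pairs was not counted. The average difference of Krt18, 0.16 ± 0.07, did not pass (95% interval 0.01 to 0.31, adjusted p = 0.119). It passed with a trend and robust settings in limma (adjusted p = 0.0373) and without treated major satellite replicate 1 (0.21, adjusted p = 0.0479).

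Krt80, a type II keratin found in many epithelia, differed more between the replicate numbers, on average, than with TGFbeta. It had 10.40 and 9.97 in major satellite cells with TGFbeta, against 10.16 and 9.18 untreated, and 10.18 and 10.10 in control vector cells with TGFbeta, against 10.26 and 9.42 untreated. The 2 untreated arrays of replicate number 2 were the low ones. Krt80 differed by 0.52 ± 0.19 in major satellite cells (adjusted p = 0.102) and by 0.30 ± 0.19 in control vector cells (adjusted p = 0.374). Its average difference of 0.41 ± 0.13 lay at an adjusted p of 0.051. Krt80 passed when the genes of lowest level were left out (adjusted p = 0.0417) and after quantile normalization (adjusted p = 0.0467). It also passed without untreated control vector replicate 1, treated control vector replicate 1 or untreated major satellite replicate 1, each left out in turn (adjusted p = 0.0486, 0.00691 and 0.0187). Without either treated control vector array, the response in major satellite cells passed as well (adjusted p = 0.0394).

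**Figure D2:**
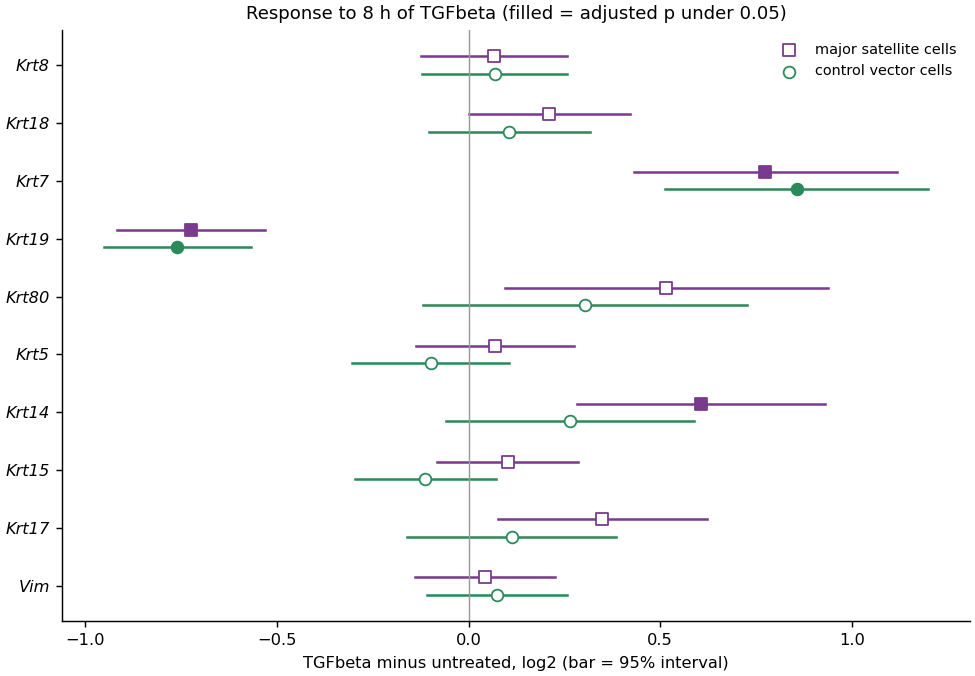
Difference between TGFbeta and untreated cells (horizontal axis, log2) for each member, with squares for major satellite cells, circles for control vector cells, bars for 95% intervals and filled symbols for an adjusted p under 0.05. Krt7 and Krt19 are filled in both lines, on opposite sides of 0, and Krt14 is filled in major satellite cells.

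Among the basal keratins, Krt14 was the 1 that was called. Averaged over the 8 arrays, Krt14 (7.92), Krt5 (7.61), Krt15 (7.39) and Krt17 (7.05) all lay under the median gene at 8.19. Whether such low values reflect expression of these genes was not tested. Krt14, the type I partner of Krt5, had 8.04 and 8.47 in major satellite cells with TGFbeta, against 7.68 and 7.60 untreated. In control vector cells it had 8.15 and 7.92 with TGFbeta, against 7.82 and 7.72 untreated. The 4 TGFbeta arrays lay above the 4 untreated arrays, with treated major satellite replicate 2 standing highest. As for Krt19, the share of all genes separated in this way was not counted. Krt14 rose by 0.61 ± 0.14 in major satellite cells (adjusted p = 0.0206). It was 0.26 ± 0.14 higher in control vector cells, without passing (adjusted p = 0.305), and rose by 0.44 ± 0.10 in the average (adjusted p = 0.0121). The difference between the 2 responses, 0.34 ± 0.20, did not pass (adjusted p = 0.999, unadjusted p = 0.125). Without treated major satellite replicate 2 the difference in major satellite cells was 0.32 (adjusted p = 0.1285), and without untreated major satellite replicate 1 or 2 it was 0.66 or 0.55 (adjusted p = 0.0761 or 0.157). Without the replicate number the adjusted p was 0.228 in major satellite cells and 0.123 in the average. Fitted on the 4 major satellite arrays alone it was 0.05035, and with every probeset of the table tested it was 0.105 in major satellite cells and 0.0682 in the average. The average call was also lost (adjusted p = 0.0525 to 0.0592) without untreated control vector replicate 2, treated control vector replicate 1 or untreated major satellite replicate 2, each left out in turn.

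Krt5, the type II keratin of basal cells, had 7.90 and 7.54 in major satellite cells with TGFbeta, against 7.94 and 7.36 untreated, and 7.72 and 7.24 in control vector cells with TGFbeta, against 7.87 and 7.29 untreated. Treated and untreated arrays of Krt5 overlapped in both lines. Its average difference was -0.02 ± 0.06 (95% interval -0.16 to 0.13). Krt15, a type I keratin of basal progenitor cells, had 7.61 and 7.22 in major satellite cells with TGFbeta, against 7.52 and 7.11 untreated, and 7.57 and 7.15 in control vector cells with TGFbeta, against 7.64 and 7.30 untreated. Its average difference was -0.01 ± 0.06 (95% interval -0.14 to 0.12). Krt17, a type I keratin known to rise in stressed and wounded epithelium, had 7.57 and 6.98 in major satellite cells with TGFbeta, against 6.99 and 6.87 untreated. In control vector cells it had 7.31 and 6.81 with TGFbeta, against 7.05 and 6.84 untreated. Its average difference of 0.23 ± 0.09 did not pass (adjusted p = 0.0842), and without treated major satellite replicate 2 it was 0.31 (adjusted p = 0.0409).

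Other basal and myoepithelial genes did not move as a group. Of 12 markers, in the average response 2 rose (Acta2, a smooth muscle actin, by 0.30, and Tagln, an actin-binding protein, by 0.32), 2 fell (Mylk, the myosin light chain kinase, by 0.89, and the receptor gene Lgr5 by 0.35) and 8 did not pass. The summed log2 level of these 12 markers was 91.20 and 88.05 in major satellite cells with TGFbeta, against 91.22 and 88.37 untreated, and 91.35 and 88.46 in control vector cells with TGFbeta, against 91.85 and 88.33 untreated. The basal regulator gene Trp63 averaged 7.74, under the median gene. Their part in the difference of Krt14 was not tested.

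Vim, the mesenchymal filament gene, was high in untreated cells already. It had 14.22 and 14.13 in major satellite cells with TGFbeta, against 14.16 and 14.11 untreated, and 14.20 and 14.18 in control vector cells with TGFbeta, against 14.15 and 14.08 untreated. Like Krt18, Vim was higher with TGFbeta in 4 of 4 pairs of the same line and replicate number, by 0.03 to 0.10. The 8 arrays of Vim spanned 0.14 log2 units in all. Its average difference of 0.06 ± 0.06 did not pass (adjusted p = 0.529), and its 95% interval of -0.07 to 0.19 corresponds to 0.951-fold to 1.14-fold. Zeb1, a repressor of epithelial genes, rose by 0.82 ± 0.07 in the same comparison (adjusted p = 4.06e-05), and Cdh1 was -0.12 ± 0.06 (adjusted p = 0.241). Of 6 EMT repressors, 4 rose, among them Snai1 by 1.62, Zeb1 by 0.82 and Zeb2 by 0.67, while Twist2 fell by 0.97 and 1 did not pass. Of 10 fibroblast markers 3 rose in the average response, which were the receptor genes Pdgfra (0.66) and Pdgfrb (0.29) and the collagen gene Col1a1 (0.47), and 7 did not pass. The summed log2 level of these 10 markers was 73.15 and 72.28 in major satellite cells with TGFbeta, against 71.70 and 69.50 untreated, and 73.16 and 71.76 in control vector cells with TGFbeta, against 71.81 and 69.10 untreated. The sum was higher with TGFbeta in all 4 pairs, but this was not particular to fibroblast markers. The sums of the epithelial identity markers and of the endothelial and immune markers were also higher in all 4 pairs. That of the epithelial transcription and splicing regulators was lower in all 4. The part of the fibroblast markers in the values of Vim was not tested.

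The probesets of Krt8, Vim and Krt18 read close to the upper end of the arrays. On average over the arrays, 12 of the 34760 probesets read higher than that of Krt8, 32 higher than that of Vim and 142 higher than that of Krt18. The Krt8 values lay 0.20 to 0.45 below the highest value of their own array, those of Vim 0.39 to 0.59 below it and those of Krt18 0.64 to 1.16 below it. Krt19 lay 0.99 to 2.00 below it. Few genes in that range were called. Of the 48 genes with a mean at or above that of Krt18 (13.77), 1 was called in the average TGFbeta response, 2.08% against 24.3% of all genes. The median absolute difference in that range was 0.04, against 0.11 over all genes, and the largest was 0.24. Of the 152 genes with a mean at or above that of Krt19 (13.21), 19 were called (12.5%), with a largest absolute difference of 0.81. Whether signals so near the top still follow the amount of RNA was not tested.

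**Figure D3:**
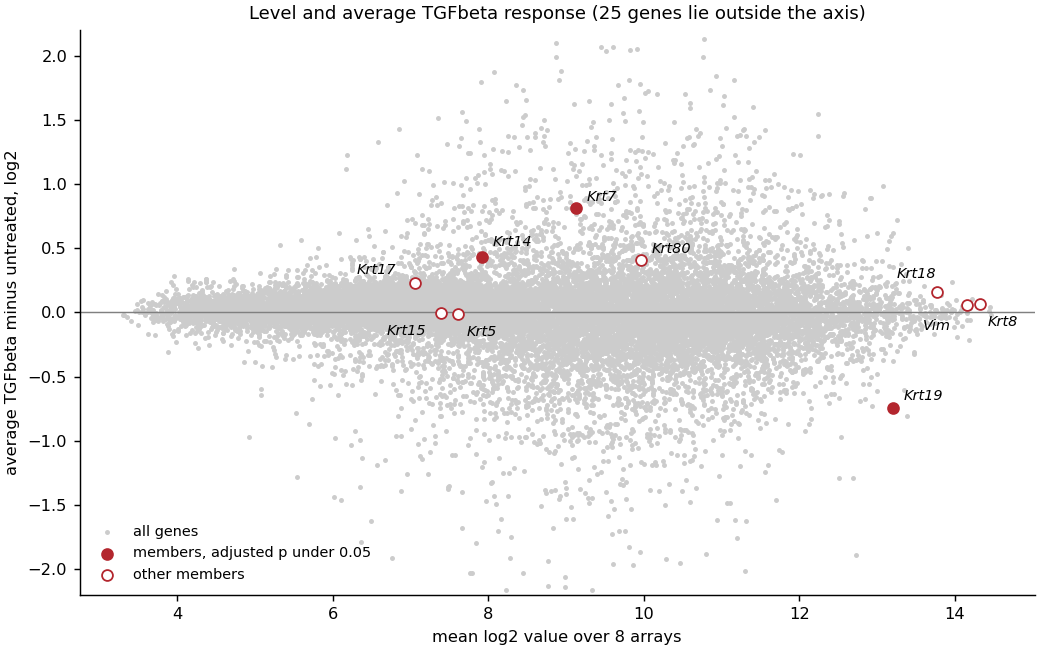
Average TGFbeta response (vertical axis, log2) against the mean log2 value over the 8 arrays (horizontal axis), with grey points for all genes, filled circles for members with an adjusted p under 0.05 and open circles for the other members. The cloud narrows toward the right end, where Krt8, Vim and Krt18 sit, and Krt19, at -0.74, lies near its lower edge. Outside the axis lie 25 genes.

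The promoter of Krt7, which rose, is shown beside those of Krt8 and Vim, which were high and were not called. Of the 10 members, 6 had an entry in the RefSeq promoter table (build GRCm38.p6). For 5 of them the entry lay just before the outer start of the gene's annotated span, while that of Krt14 was for a start 1480 bases inside its span and is not shown. Each sequence is the 250 bases before the annotated start, read 5′ to 3′ on the gene's strand, and capitals mark letters that match a motif. The motifs were CAGAC, which Smad proteins bind, CACCTG, the E-box of Snail and Zeb proteins, and TGANTCA, the AP-1 site, each searched on both strands, and TATAAA, the TATA box, searched on the gene's strand.
Krt7, chr15:101412153-101412402, plus strand: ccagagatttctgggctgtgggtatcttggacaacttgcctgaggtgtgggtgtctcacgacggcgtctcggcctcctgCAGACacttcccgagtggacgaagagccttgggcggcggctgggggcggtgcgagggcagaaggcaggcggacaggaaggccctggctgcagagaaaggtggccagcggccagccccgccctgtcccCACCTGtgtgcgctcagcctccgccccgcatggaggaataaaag
Krt8, chr15:102004343-102004592, minus strand: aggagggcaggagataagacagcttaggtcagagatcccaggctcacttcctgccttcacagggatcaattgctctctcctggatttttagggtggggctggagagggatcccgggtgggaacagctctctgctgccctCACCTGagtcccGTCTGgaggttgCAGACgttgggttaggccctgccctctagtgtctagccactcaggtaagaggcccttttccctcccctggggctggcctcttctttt
Vim, chr2:13574061-13574310, plus strand: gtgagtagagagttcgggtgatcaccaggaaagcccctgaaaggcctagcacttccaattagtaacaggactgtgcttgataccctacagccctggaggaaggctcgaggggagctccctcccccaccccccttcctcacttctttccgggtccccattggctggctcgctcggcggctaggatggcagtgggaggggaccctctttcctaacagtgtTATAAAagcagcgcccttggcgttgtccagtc
Krt7 held 1 Smad motif and 1 E-box, which began 44 bases before the start. Krt8 held 2 Smad motifs and 1 E-box, and Vim a TATA box 32 bases before the start and none of the other motifs. Of the promoters not shown, Krt18 held 1 Smad motif and 1 E-box, and Krt5 held 1 E-box. None of these 5 held an AP-1 site, and no motif copies overlapped in the sequences shown. Among the first promoters of 27025 genes, 42.1% held the Smad motif, 17.1% the E-box, 6.87% the AP-1 site and 8.12% TATAAA. Of 27024 of these entries with a known gene span, 72.5% lay just before its outer start. The E-box was thus present in the promoter of Krt7, which rose, and in those of Krt8, Krt18 and Krt5, which were not called. A match in letters is not a binding site.

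No member was called between the vectors by limma, with 2 of 10 at an unadjusted p under 0.05 with TGFbeta, 0 untreated and 2 in the average. Krt19 came nearest in unadjusted p. It was higher in major satellite than in control vector cells within every pair of the same treatment and replicate number, by 0.28 and 0.17 with TGFbeta and by 0.12 and 0.25 untreated. Its average difference was 0.21 ± 0.06 (unadjusted p = 0.00757, adjusted p = 0.829). Krt5 was also higher in 4 of 4 pairs, by 0.18 and 0.30 with TGFbeta and by 0.07 in both untreated pairs, with an average of 0.16 ± 0.06 (unadjusted p = 0.038, adjusted p = 0.874). The 4 pairs come from 2 replicate numbers, and the share of all genes with the same sign in all 4 was not counted. The other 8 members had average differences between -0.06 and 0.10. Over all genes, 0.0301% were called between the vectors with TGFbeta, 0.0301% untreated and 0.0853% in the average, with 1298, 654 and 1071 genes at an unadjusted p under 0.05. For Krt8 the average was 0.00 with a 95% interval of -0.14 to 0.13, and for Vim it was 0.00 with -0.13 to 0.13. Krt7 had -0.06 (-0.31 to 0.18) and Krt80 -0.06 (-0.36 to 0.23).

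**Figure D4:**
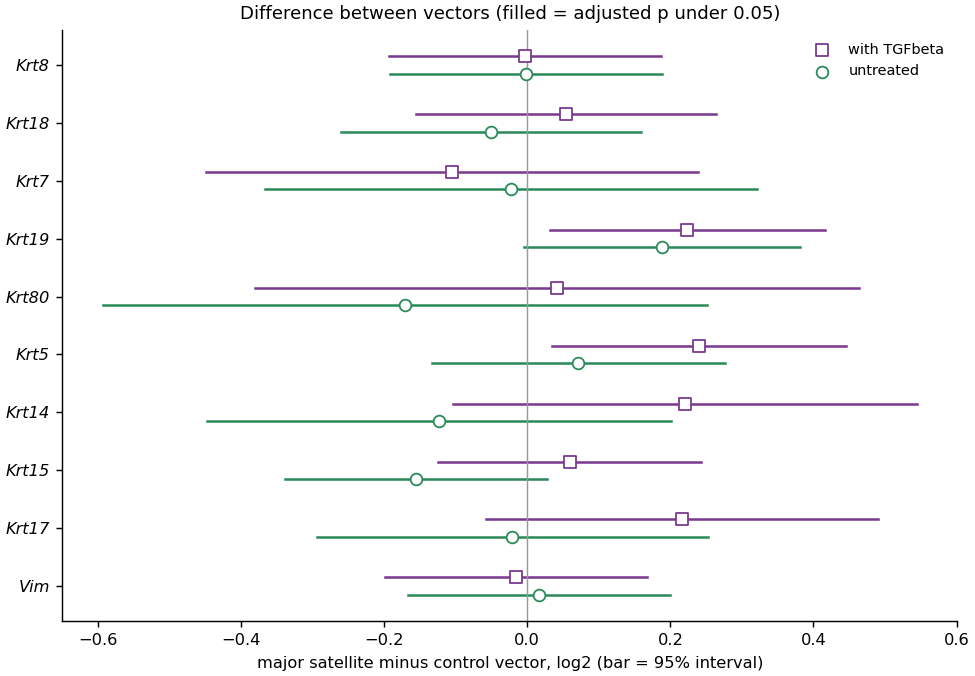
Difference between major satellite and control vector cells (horizontal axis, log2) for each member, with squares for TGFbeta-treated and circles for untreated cells and bars for 95% intervals. No symbol is filled, so no member had an adjusted p under 0.05, and both Krt19 estimates lie to the right of 0.

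The difference between the TGFbeta responses of the lines was not called for any member by limma, with 0 of 10 members and 658 of all genes at an unadjusted p under 0.05. No gene of the 19937 passed (0% of all genes). The 95% intervals for major satellite minus control vector ran from -0.57 to 0.40 for Krt7 and from -0.24 to 0.31 for Krt19, so differences of that size between the lines could not be told from 0.

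On average, the replicate number moved Krt7 nearly as much as TGFbeta did, and Krt80, Krt5, Krt15, Krt17, Krt18 and Krt8 more than TGFbeta did. Number 2 minus number 1 averaged -0.25 for Krt18 and -0.14 for Krt8, against TGFbeta differences of 0.16 and 0.07. For Vim it averaged -0.06, against 0.06 with TGFbeta. Over all genes, number 2 minus number 1 had a median of -0.08 and a median absolute value of 0.19. Krt7 was lower in replicate number 2 in all 4 groups, by 0.37 to 1.08, and Krt80 by 0.08 to 0.99. Krt5 was lower in number 2 by 0.36 to 0.58, Krt15 by 0.34 to 0.42 and Krt17 by 0.12 to 0.59. Vim was lower by 0.02 to 0.09. The size of the TGFbeta difference also varied with the replicate number. For Krt7 it was 0.63 and 0.92 in replicate numbers 1 and 2 of major satellite cells, and 0.50 and 1.21 in those of control vector cells. For Krt80 it was 0.23 and 0.80 in major satellite cells, and -0.08 and 0.69 in control vector cells. Krt17 had the opposite order, with 0.58 and 0.12 in major satellite cells and 0.26 and -0.03 in control vector cells. A limma fit in which the response could differ between the replicate numbers, added after the data had been seen, gave a difference of 0.67 ± 0.15 for Krt80 (unadjusted p = 0.0016, adjusted p = 0.137) and 0.50 ± 0.13 for Krt7 (unadjusted p = 0.00379, adjusted p = 0.2). For Krt17 it gave -0.37 ± 0.14 (unadjusted p = 0.0209, adjusted p = 0.439), and for Krt19 0.04 ± 0.12. None of these passed, beside 0.321% of all genes called in that fit.

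**Figure D5:**
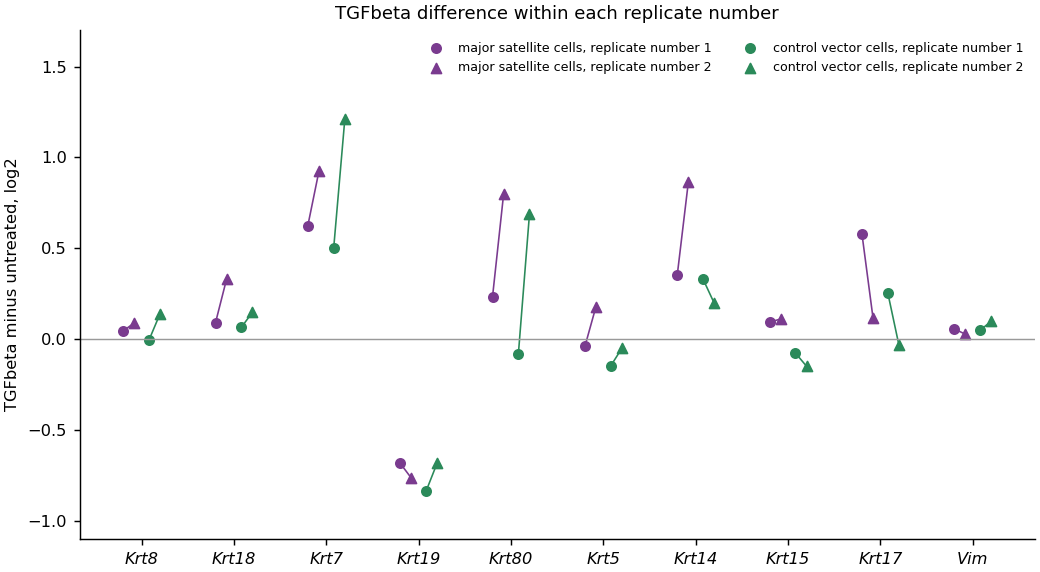
TGFbeta minus untreated (vertical axis, log2) within each replicate number, with purple for major satellite and green for control vector cells, circles for number 1 and triangles for number 2. The lines join the 2 replicate numbers of a line of cells. Krt19 keeps its size (-0.84 to -0.68) in all 4 pairs, while Krt7 and Krt80 are larger in number 2 and Krt17 in number 1.

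Keratin genes lie in clusters, the type I genes on chromosome 11 and the type II genes on chromosome 15, with Krt18 at the end of the type II cluster next to Krt8. Krt15, with an average difference of -0.01, is the coding gene next to Krt19, which fell by 0.74. Krt80, at 0.41, is next to Krt7, at 0.82. Of the 27 measured protein-coding keratins on chromosome 11, members included, 5 were called in the average response (18.5%), and of the 24 on chromosome 15, 4 were (16.7%), beside 24.3% of all genes.

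Keratins outside the 10 members included responses larger than theirs. Of a list of 23 other type I keratins, 3 rose in the average response, 0 fell and 20 did not pass, with a median of 0.04, against 0.03 over all genes. Krt20, a keratin of gut and urinary epithelium, rose by 1.23 ± 0.06 (adjusted p = 1.94e-06) and passed in major satellite cells (1.23 ± 0.08) and in control vector cells (1.22 ± 0.08). It passed in each line without the replicate number too (adjusted p = 0.0298 in major satellite and 0.0265 in control vector cells). Krt16, a keratin of activated epidermis whose gene lies between Krt14 and Krt17, rose by 0.90 ± 0.11 (adjusted p = 0.000305). Krt26, a hair root keratin, rose by 0.37 ± 0.07. Unlike Krt20, neither Krt16 nor Krt26 passed the average response without the replicate number (adjusted p = 0.142 and 0.185). The means of Krt16 (7.33) and Krt26 (5.91) were under the median gene. A list of 22 other type II keratins, which includes Krt74, annotated as a pseudogene, and leaves out Krt88, had 19 measured, of which 2 rose, 1 fell and 16 did not pass (median 0.09). Krt88, looked up after the values were seen, had 0.08 ± 0.07 (adjusted p = 0.469). The fall was that of Krt6a, a partner of Krt16 and Krt17, by 0.81 ± 0.15 (adjusted p = 0.00418). Its neighbour Krt6b rose by 0.30 ± 0.09 and the hair root keratin Krt71 by 0.19 ± 0.06. Without the replicate number Krt6a, Krt6b and Krt71 did not pass (adjusted p = 0.332, 0.461 and 0.736). With it, 0 of the 19 passed in major satellite cells, and in control vector cells 1 rose and 1 fell. The means of Krt6a (8.10), Krt6b (7.28) and Krt71 (7.23) were also under the median gene. Krt14, Krt16 and Krt17, and Krt6a and Krt6b, are close in sequence, and whether their probesets share signal was not tested.

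Of 17 other intermediate filament genes, 3 rose in the average response, 0 fell and 14 did not pass, with a median of 0.10. They were Iffo2 (0.45), the nuclear lamin gene Lmna (0.39) and Nes (0.37), which encodes nestin, a filament protein of progenitor cells. Of 17 plakins and filament anchoring genes, 8 rose, 3 fell and 6 did not pass, with a median of 0.18. Ppl, which encodes periplakin, a linker of keratins to the cornified envelope and desmosomes, fell by 1.47 ± 0.07 (adjusted p = 1.61e-06). Pkp1, which encodes the desmosomal plaque protein plakophilin 1, rose by 1.33 ± 0.07 (adjusted p = 2.06e-06), Jup, which encodes plakoglobin, by 0.62 ± 0.07, and the hemidesmosome integrin gene Itgb4 by 0.58 ± 0.06. Without the replicate number, 3 of these 17 passed (Ppl, Itgb4 and Jup). Of 18 epithelial transcription and splicing regulators, 6 fell, 1 rose and 11 did not pass, with a median of -0.03. Klf5, a Kruppel-like factor of epithelial cells, fell by 0.83 ± 0.06, Klf4 by 0.38 ± 0.06 and the Ets factor gene Ehf by 0.50 ± 0.10, while Gata3, a factor of luminal cells, rose by 0.39 ± 0.07. Of 12 epithelial identity markers 3 rose (the claudin genes Cldn4 by 2.25 and Cldn3 by 0.31, and Epcam by 0.39), the tight junction gene Ocln fell by 0.34 and 8 did not pass. Mammary luminal and milk markers had 10 of 12 measured, of which Esr1, the estrogen receptor gene, rose by 0.24, the casein gene Csn3 fell by 0.26 and 8 did not pass. Of 10 measured endothelial and immune markers 1 rose (Cdh5, by 0.30). None of these list genes was called in the average difference between vectors.

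For the 3 members called in the average response, the genes with the most similar course over the 8 arrays were found by the root mean square difference of values centred within each replicate number. Genes picked in this way have similar TGFbeta differences by construction. Nearest to Krt19 were Pcolce (0.061), Wnt4 (0.063) and Barhl2 (0.072), beside a root mean square of 0.386 for Krt19 itself, and they fell by 0.69, 0.70 and 0.75 in the average response. Nearest to Krt7 were Bend7 (0.044), Trpm6 (0.060) and Zswim4 (0.066), beside 0.432 for Krt7, and they rose by 0.84, 0.79 and 0.80. Nearest to Krt14 were Gemin7 (0.054), Yif1b (0.056) and Il10rb (0.061), beside 0.267 for Krt14, and they rose by 0.43, 0.43 and 0.38.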

How the data were processed

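Total RNA of 8 samples of NMuMG cells was measured on Affymetrix arrays. The authors deposited log2 expression values per probeset. Per the submitters' processing notes, the tools include RMA and limma, with no version or role stated; the genome build is not given in the sources used here. Of the 34760 probesets, 21640 had 1 gene symbol, 1321 several and 11799 none in the platform's probe table. Symbols were updated through Entrez identifiers with RefSeq GRCm38.p6 (19855 of 19937), and a gene with several probesets kept the one with the highest mean. Each member had 1 probeset.

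The model, fitted in limma 3.58.1 (R 4.3.3), had 1 mean per group, the replicate number as a term (3 residual degrees of freedom) and Benjamini-Hochberg adjustment over 19937 genes, two-sided. The replicate number is the code in the titles. Pairing by this code was part of the rule that set the members. Deviations from group means of arrays of the same number correlated, across genes, at 0.758 to 0.874. With 2 arrays a group these deviations mirror each other, so both replicate numbers gave the same correlations. The fit was also run on simulated data with independent noise and 200 changed genes. That setting is simpler than these data, so it does not show how the fit behaves on them. The number of arrays limits the precision. The members, gene lists and tests were chosen with earlier results of these data known.

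Named genes were all members, up to 4 passing genes of each list with the smallest p in the average TGFbeta response or the average vector difference, Cdh1 and Zeb1 whatever their p, and 3 genes of the most similar course for each of 3 called members, leaving out predicted, Riken and small RNA genes. The other alternatives tried were a fit without the replicate number, probeset means, all probesets, a filter on low values, 2 further scalings, other eBayes settings, the compared arrays alone and leaving out each array.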

Additional observations from a re-analysis of the deposited data

Results flagged for a closer look

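Krt15 differed in opposite directions with TGFbeta in the lines in every pair. The share of all genes with such a pattern of signs was not counted, and Krt15 averaged 7.39, under the median gene. It was higher in both replicate numbers of major satellite cells (by 0.09 and 0.11) and lower in both of control vector cells (-0.08 and -0.15). The difference between the responses, 0.21 ± 0.11, did not pass in limma (unadjusted p = 0.0939, adjusted p = 0.999), and neither response passed (adjusted p = 0.459 in major satellite and 0.457 in control vector cells).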

How the results depend on the processing

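Without the replicate number as a block, 0 members passed the TGFbeta response in major satellite cells, 0 in control vector cells and 1 (Krt19) in the average, against 3, 2 and 3 with it. Over all genes that fit called 218, 214 and 962, against 3044, 2901 and 4841 with the block, and between the vectors 1 with TGFbeta, 1 untreated and 2 in the average, against 6, 6 and 17. With every probeset as a feature, 1 member (Krt19) passed in each line, and 1799 and 1550 probesets were called in major satellite and control vector cells. Leaving out 1 array gave 1 to 4 members in major satellite cells, 1 to 2 in control vector cells and 2 to 4 in the average, and 1228 to 3020, 1202 to 3161 and 3498 to 4860 genes. On the 4 major satellite arrays alone, 1997 genes were called. No member was called between the vectors, or in the difference between the TGFbeta responses, under any of the alternatives run, while calls over all genes ranged from 1 to 107 with TGFbeta, 1 to 16 untreated, 2 to 49 in the average and 0 to 17 in the difference between the responses. No member's called difference changed sign. The cause of the lost calls was not tested. The paired arrays, 2 a group, limit the precision, and the Krt8, Vim and Krt18 probesets lay within 1.16 of the highest value of their array.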
